A study of Mus musculus with 6 samples.

Results

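Apolipoproteins are the protein shells of the particles that carry triglyceride and cholesterol through the blood, and the liver is their main source. Hepatocytes wrap lipid around apolipoprotein B inside the endoplasmic reticulum with the help of the microsomal triglyceride transfer protein, which gives very low density lipoprotein (VLDL). They also release the A-type proteins of high density lipoprotein (HDL) and small exchangeable proteins that set how fast the particles are lipolysed and taken up. The 10 genes described here are *Apob*, *Mttp*, *Apoa1*, *Apoa2*, *Apom*, *Apoa4*, *Apoa5*, *Apoc1*, *Apoc3* and *Apoe*, chosen by gene symbol as 10 of the 55401 genes in the deposited table. All 10 had 1 entry each, and all 10 passed the filter on low values (a mean of at least 1 FPKM, the fragments of a gene divided by its length and by library size), as did 10051 genes in all.

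Liver RNA of C57BL/6 mice was sequenced in 3 groups of 2 libraries. The COS+APAP group (replicates 2 and 3) was pretreated with costunolide (COS), a sesquiterpene lactone found in plants, at 20 mg/kg, once 12 h and once 40 min ahead of an intraperitoneal dose of acetaminophen (APAP, paracetamol) of 400 mg/kg. The APAP group (replicates 1 and 3) received the same APAP dose alone and both groups were taken after 6 h, while the control group (replicates 1 and 3) is labelled normal, with no vehicle, age or sex given. No label says whether replicates were separate mice, so p-values measure only the spread between these libraries, which may be technical. The protocol text assigns the pretreatment to the samples numbered 5 and 6. By accession, samples 5 and 6 are the ones titled model, and their treatment label is APAP alone. If that text and not the labels were right, the COS+APAP and APAP names below would be exchanged and every difference between them would change sign. The COS+APAP titles begin with 2 and the other 4 titles with 1, and COS and whatever else that first digit may mark cannot be told apart.

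The libraries held between 71115112 and 76669799 estimated counts. The extraction text speaks of adipose tissue, whereas the labelled tissue is liver. The 7 hepatocyte markers summed to 33230 to 34605 FPKM in COS+APAP, 42548 to 46778 in APAP, and 37769 to 37781 in control, highest in APAP. By the test described below, 3 of the 7 were called higher and 1 lower in APAP minus control, beside 23.3% and 22.1% of all tested genes. In COS+APAP minus APAP 0 were called higher and 0 lower, beside 11.2% and 11.1% of all tested genes. Their median log2 fold change was -0.26 there, beside 0.006 over all tested genes. The 5 adipocyte markers summed to 4.83 to 5.64, 5.77 to 11.3 and 2.40 to 2.60 FPKM in the same groups, with *Plin1* and *Lep* at 0.04 FPKM or less in every library. Neutrophil markers summed to 2.52 to 3.90, 10.5 to 31.8 and 4.06 to 6.68 FPKM (6 genes, *Ly6g* at 0 throughout), and stellate cell markers to 10.9 to 13.6, 25.8 to 25.8 and 23.7 to 24.3 FPKM (6 genes). Only 2 stellate cell markers passed the filter. In COS+APAP minus APAP 1 was higher and 1 lower without overlap, beside 33.3% and 35.3% of all tested genes. Of the adipocyte markers 2 passed. In COS+APAP minus control 1 was higher and 1 lower without overlap, beside 25.0% and 42.3%. The part of these lists in the results below was not tested. Whole liver was measured, so fewer cells of a type and less RNA per cell cannot be told apart. The 10 genes were deeply covered, with 5076 estimated counts as the lowest value (*Apom*, control replicate 3) and 1420791 as the highest (*Apoa1*, APAP replicate 3). Counting error is therefore small for these genes. It need not be smaller than the spread between libraries where that is itself small, as for *Apoa2* in APAP (9560 and 9546 FPKM).

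To show what lies in front of members that did or did not pass the test in APAP minus control, 150 bases are given per gene. *Apoa5* and *Apob* rose, and *Apoa1* did not pass the test and lies in the same chromosome 9 cluster as *Apoa5*. The stretches are RefSeq sequence of GRCm38.p6, plus strand, 5′ to 3′. They end just before the RefSeq start for *Apoa5* and just before the first base of the deposited gene for the others. The windows are chr9:46268458-46268607, chr12:7977498-7977647 and chr9:46228430-46228579. Capitals mark motif matches on either strand.
Apoa5: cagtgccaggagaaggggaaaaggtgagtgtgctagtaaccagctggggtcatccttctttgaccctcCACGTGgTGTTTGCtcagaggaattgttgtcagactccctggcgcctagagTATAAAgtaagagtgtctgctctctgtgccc
Apob: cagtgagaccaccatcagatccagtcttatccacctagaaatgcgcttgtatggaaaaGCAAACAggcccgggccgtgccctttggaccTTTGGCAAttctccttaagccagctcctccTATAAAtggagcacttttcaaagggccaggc
Apoa1: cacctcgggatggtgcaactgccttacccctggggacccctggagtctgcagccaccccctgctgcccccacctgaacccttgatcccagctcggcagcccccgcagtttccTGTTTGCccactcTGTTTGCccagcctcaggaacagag

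The search covered both strands of the 250 bases before the first-listed RefSeq start of 8 members, *Apoc1* and *Apoc3* having no window in the table. Some windows held annotated exons of any gene, over 250 bases for *Apoa4* and *Mttp* and 249 for *Apom*. The *Apom* window (35131802 to 35132051) lay almost wholly inside the deposited gene. The *Apoa4* window (46240594 to 46240843) reached into its gene, as did those of *Apoa1* and *Apob* by fewer bases. A FOXA-type motif, TGTTTNC, was found in 5 of the 8 windows (*Apoa1*, *Apoa2*, *Apoa5*, *Apob* and *Apom*) and in 17.8% of 32817 windows of all genes. The TATA motif TATAAA was found in 3 member windows (*Apoa2*, *Apoa5* and *Apob*) and in 12.4% of all windows. The C/EBP motif TTNCNNAA was found in *Apob* and *Mttp* and in 36.8% of all windows. The E-box CACGTG was found in *Apoa5* alone and in 6.0% of all windows, and the CRE core TGACGT in *Mttp* alone and in 6.5%. The HNF4A core AAAGTCC, the nuclear receptor core AGGTCA, the AP-1 motif TGANTCA and the antioxidant response motif TGACNNNGC were found in none of the first windows of the 8 members. These motifs occurred in 3.6%, 14.0%, 6.8% and 10.2% of all windows. *Apoa2*, *Apoa5* and *Apoe* have further windows, which the member counts leave out, whereas the percentages of all genes include further windows. A further window of *Apoa2* held the HNF4A core, the nuclear receptor core and the C/EBP motif, and one of *Apoe* held the TATA motif. The matches are letters in a window, and *Apoa1*, which did not pass the test, held 2 FOXA-type matches in the stretch shown.

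After APAP the 10 genes did not move together. *Apob*, *Mttp*, *Apoa4*, *Apoa5* and *Apom* rose, *Apoc1* fell, and the abundant HDL genes *Apoa1* and *Apoa2* as well as *Apoc3* and *Apoe* did not pass the test. In COS+APAP livers *Apoa4*, *Apom*, *Mttp* and *Apoa5* were lower than in APAP livers, and no member was higher. A gene was called at an adjusted p below 0.05 in edgeR's two-sided quasi-likelihood test, with Benjamini-Hochberg adjustment across 10051 genes, which gives every adjusted p unless another tool is named. Fold changes are log2 values with their standard error. With 2 libraries against 2, an exact permutation test of a single gene cannot give a p below 0.33, so the calls depend on a spread estimated jointly over the 3 groups and across genes.

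In APAP minus control, 5 of 10 members were called higher and 1 lower, where 23.3% of all tested genes were called higher and 22.1% lower (45.4% either way). In FPKM the groups did not overlap for 6 higher and 3 lower members, where 32.1% of all tested genes were higher and 44.1% lower in this way. The members' median log2 fold change was 0.87, beside -0.002 over all tested genes. In COS+APAP minus APAP, 0 members were called higher and 4 lower, where 11.2% of all tested genes were called higher and 11.1% lower (22.4% either way), with a members' median of -0.54 beside 0.006. Groups did not overlap for 0 higher and 6 lower members, beside 33.3% and 35.3% of all tested genes. Leaving out any 1 library gave fewer called members in this comparison, and fewer calls over all tested genes as well. In COS+APAP minus control, 2 members were called higher and 1 lower, where 10.7% of all tested genes were called higher and 10.3% lower (21.0% either way), with a median of 0.13 beside 0.018. Groups did not overlap for 3 higher and 4 lower members, beside 25.0% and 42.3% of all tested genes. Here too, leaving out any 1 library gave fewer called members and fewer calls over all tested genes. Every pair of these comparisons shares the libraries of 1 group.

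**Figure D1:**
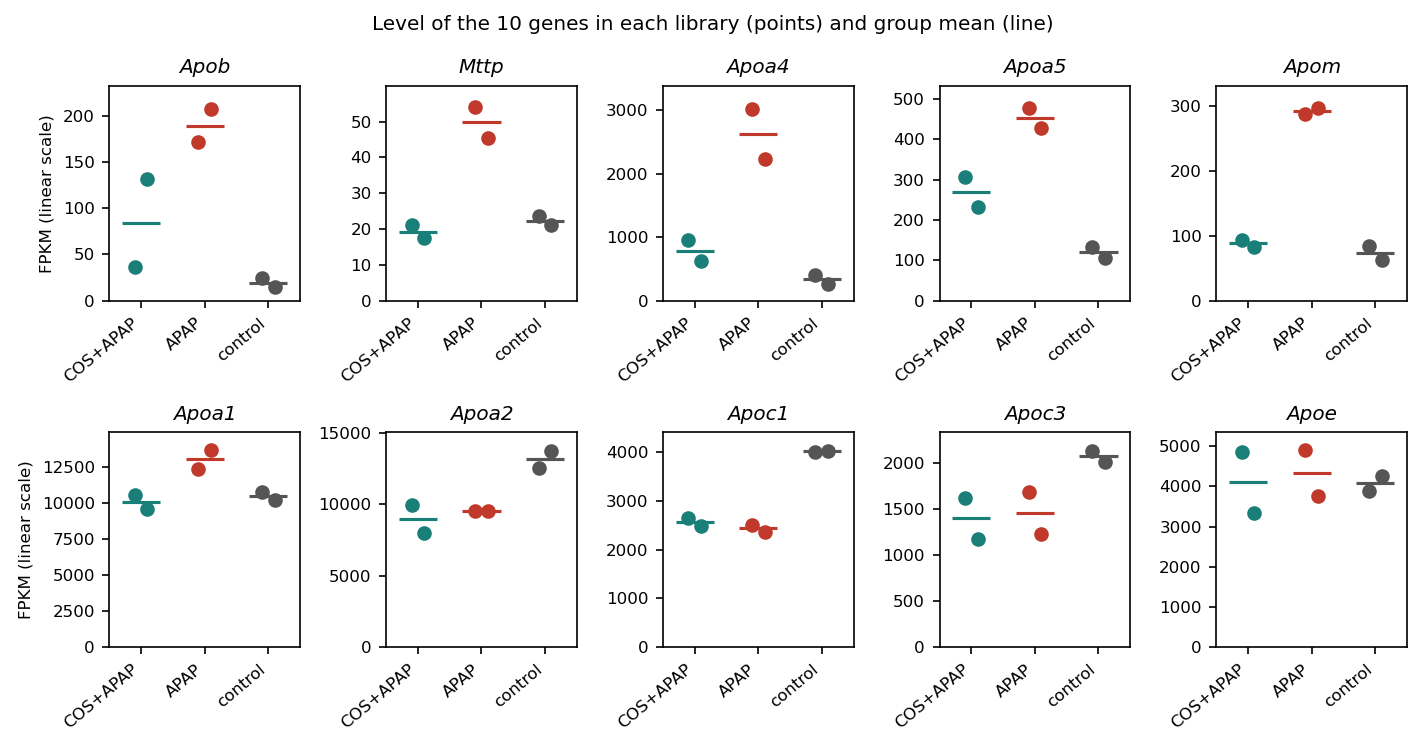
Level of each of the 10 genes in FPKM on a linear axis that starts at 0, with 1 point per library and a line at the group mean (n = 2), for COS+APAP, APAP and control. The upper 5 genes have both APAP points above both control points; among the lower 5, *Apoc1* is lower in both treated groups than in control, and *Apoe* overlaps in all 3 groups.

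Particle assembly. *Apob* encodes the non-exchangeable scaffold of VLDL and lies on chromosome 12, from 7977648 to 8016835 on the plus strand. Its level was 36.4 and 132 FPKM in COS+APAP, 172 and 208 FPKM in APAP, and 24.8 and 14.2 FPKM in control. The APAP libraries lay above all others, and the COS+APAP libraries were far apart, replicate 3 being closer to APAP and replicate 2 to control. *Apob* rose by 3.41 ± 0.67 in APAP over control (adjusted p = 0.0109), which was 0.0613 without control replicate 3. The difference between COS+APAP and APAP was -1.15 ± 0.62 (adjusted p = 0.228) and ranged from -2.37 without COS+APAP replicate 3 (adjusted p = 0.0471) to -0.50 without COS+APAP replicate 2. Between COS+APAP and control it was 2.26 ± 0.64 (adjusted p = 0.0582), or 2.91 without COS+APAP replicate 2 (adjusted p = 0.0234) and 1.04 without COS+APAP replicate 3. DESeq2's Wald test called this difference (2.25, adjusted p = 0.000817). The level of *Apob* in COS+APAP thus depends on 1 library.

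*Apob* has the longest transcript of the 10, 13934 bases, and long transcripts differed between these groups in general. In APAP minus control, the 103 tested genes with a transcript over 10000 bases had a median log2 fold change of 0.29 (5th to 95th percentile -0.94 to 1.93), and the 1507 genes up to 1000 bases had a median of -0.17. Only 2 of the 103 genes differed by more than *Apob*. *Lrp1*, the receptor of lipoprotein remnants, has a transcript of 14888 bases and was at 23.4 and 25.7 FPKM in COS+APAP, 17.8 and 19.3 in APAP, and 23.4 and 20.8 in control. It did not pass the test in APAP minus control (-0.12 ± 0.12, adjusted p = 0.485). *Abca1*, a transporter gene with a transcript of 10262 bases, rose by 1.18 ± 0.14 in that comparison (adjusted p = 0.00289). With each library's trend on length removed, in a fit chosen after the data were seen, *Apob* was at 2.96 (adjusted p = 0.0164). The part of transcript length in the rise was not tested.

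**Figure D2:**
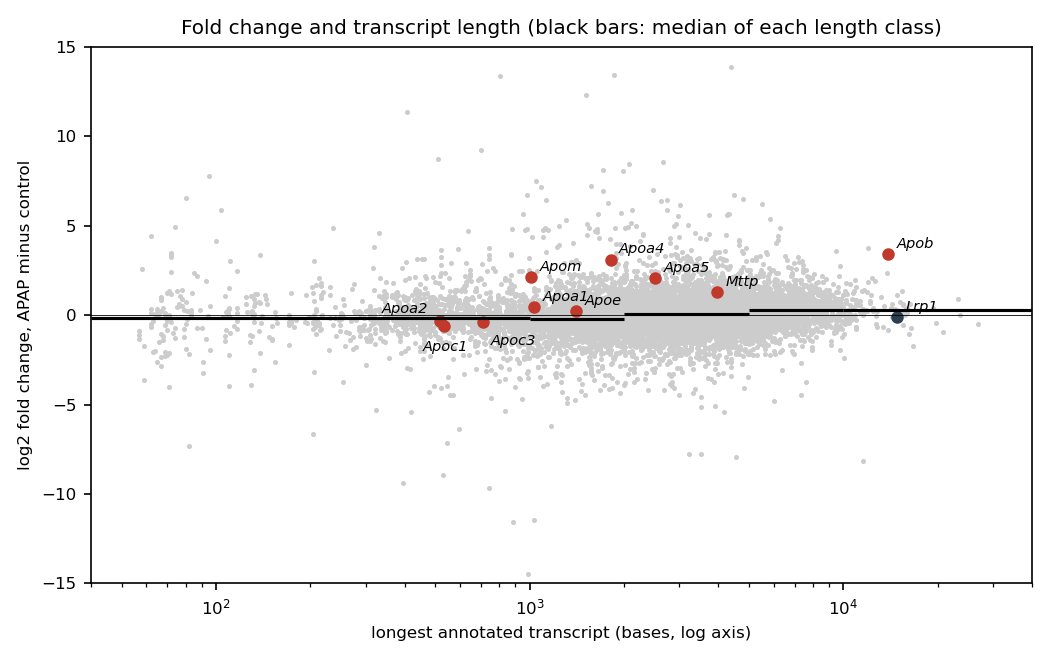
Log2 fold change of APAP minus control against the longest annotated transcript of the tested genes that have one (bases, log axis), with the 10 members in red, *Lrp1* in dark blue, other tested genes in grey and the median of each length class as a black bar. The medians lie at -0.17 and -0.20 in the classes up to 2000 bases and at 0.29 in the longest, and *Apob* lies at 3.41.

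*Mttp* encodes the large subunit of the transfer protein that loads lipid onto apolipoprotein B (chromosome 3, 138089854 to 138143388, minus strand). It was at 21.1 and 17.4 FPKM in COS+APAP, 54.1 and 45.5 FPKM in APAP, and 23.6 and 21.2 FPKM in control. Both APAP libraries were above the other 4, and COS+APAP lay just below control. *Mttp* rose by 1.29 ± 0.16 in APAP over control (adjusted p = 0.00321) and fell by 1.36 ± 0.16 in COS+APAP relative to APAP (adjusted p = 0.00839). Leaving out any library kept both calls, with adjusted p up to 0.0221 and 0.0404. Between COS+APAP and control the difference was -0.06 ± 0.16 (adjusted p = 0.805).

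HDL proteins. *Apoa1*, the main HDL protein and activator of cholesterol esterification (chromosome 9, 46228580 to 46230466), was at 10501 and 9567 FPKM in COS+APAP, 12326 and 13667 FPKM in APAP, and 10722 and 10210 FPKM in control. APAP was highest without overlap. The difference to control did not pass the test (0.45 ± 0.17, adjusted p = 0.0762), nor did that of COS+APAP to APAP (-0.35 ± 0.17, adjusted p = 0.183). DESeq2's Wald test called both (adjusted p = 0.000176 and 0.00405), and the length-adjusted fit called the first (0.0258).

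*Apoa2*, the second most abundant HDL protein (chromosome 1, 171225054 to 171226379), was at 9961 and 7951 FPKM in COS+APAP, 9560 and 9546 FPKM in APAP, and 12559 and 13728 FPKM in control. Both treated groups lay below control in FPKM. The fitted differences to control did not pass (-0.32 ± 0.17, adjusted p = 0.168 in APAP; -0.40 ± 0.17, adjusted p = 0.148 in COS+APAP). Scaling to library totals without mitochondrial transcripts, which moved the median of all genes to -0.26 in APAP minus control, called the first at -0.58 (adjusted p = 0.0364). The difference of COS+APAP to control was called by DESeq2 (-0.41, adjusted p = 0.0353), by limma on log2(FPKM + 1) (-0.56, adjusted p = 0.0497) and, just under the threshold, with that scaling (-0.62, adjusted p = 0.05).

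*Apom* carries sphingosine-1-phosphate on HDL and is far less abundant (chromosome 17, 35128997 to 35132050, minus strand). It was at 93.7 and 83.5 FPKM in COS+APAP, 289 and 297 FPKM in APAP, and 85.0 and 62.2 FPKM in control. The APAP libraries stood well above the rest, while COS+APAP and control overlapped. *Apom* rose by 2.13 ± 0.18 in APAP over control (adjusted p = 0.00151) and fell by 1.71 ± 0.18 in COS+APAP relative to APAP (adjusted p = 0.00697). Both calls held without any one library (adjusted p up to 0.0102 and 0.0393). COS+APAP minus control did not pass (0.42 ± 0.18, adjusted p = 0.144). Its log2 differences between APAP and the other groups were larger than those of *Apoa1* or *Apoa2*.

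Exchangeable proteins of triglyceride-rich particles. *Apoa1*, *Apoc3*, *Apoa4* and *Apoa5* lie within 43.3 kilobases of chromosome 9 (46228580 to 46271919), and these neighbours received different calls. *Apoa4*, an exchangeable protein made by the gut and, in mice, also by the liver, is at 46240696 to 46243459. It was at 948 and 625 FPKM in COS+APAP, 3017 and 2233 FPKM in APAP, and 408 and 266 FPKM in control. The groups did not overlap and stood in the order APAP, COS+APAP, control. *Apoa4* rose by 3.10 ± 0.35 in APAP over control (adjusted p = 0.00239), a call kept without any one library (up to 0.0145). In COS+APAP it fell by 1.73 ± 0.33 relative to APAP (adjusted p = 0.0213) and was higher than in control by 1.37 ± 0.32 (adjusted p = 0.0374). The call against APAP was lost without APAP replicate 1 (0.0915) or either COS+APAP library (0.0587 and 0.0886), and the call against control without any of the 6 libraries (0.0517 to 0.131).

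Antisense genes overlap *Apoa4*, and no source used here says that counting used strand, so reads of both strands cannot be told apart. *Gm10680* was listed at 0.52 and 2.57 FPKM in COS+APAP, 21.3 and 0.18 in APAP, and 0.02 and 0 in control, and *Gm47528* at 4.98 and 4.85, 17.4 and 9.58, and 0.45 and 0.48 in the same groups. These are small beside *Apoa4*. Among 8 enterocyte markers, *Alpi*, *Sis*, *Cdx1* and *Cdx2* were at 0 in every library, and *Vil1*, *Lct* and *Rbp2* were at 0.08 FPKM or less. *Fabp2* was at 97.0 and 65.1 FPKM in COS+APAP, 103 and 76.4 in APAP, and 111 and 95.3 in control. The list summed to 65.1 to 97.0 FPKM in COS+APAP, 76.5 to 103 in APAP, and 95.4 to 112 in control and nearly all of it was *Fabp2*. The part of such cells in the *Apoa4* values was not tested.

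*Apoa5*, which speeds the lipolysis of plasma triglyceride (46268633 to 46271919), was at 307 and 232 FPKM in COS+APAP, 479 and 428 FPKM in APAP, and 132 and 107 FPKM in control. As with *Apoa4*, the groups did not overlap and COS+APAP lay between. *Apoa5* rose by 2.06 ± 0.20 in APAP over control (adjusted p = 0.00185, up to 0.0130 without one library). It was higher by 1.33 ± 0.20 in COS+APAP than in control (adjusted p = 0.0117, or 0.0574 without control replicate 3). The difference between COS+APAP and APAP was at the edge of the threshold (-0.73 ± 0.20, adjusted p = 0.0485), and that call was lost without any of the 6 libraries (0.0546 to 0.184).

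*Apoc3*, which inhibits lipolysis and particle uptake and is transcribed toward *Apoa1* from the opposite strand (46232933 to 46235636), was at 1623 and 1179 FPKM in COS+APAP, 1690 and 1227 FPKM in APAP, and 2129 and 2014 FPKM in control. Both treated groups were below control, with a wide gap between their own libraries. No comparison passed (-0.05 ± 0.23 in COS+APAP minus APAP, -0.36 ± 0.23 in APAP minus control and -0.41 ± 0.23 in COS+APAP minus control, adjusted p = 0.902, 0.251 and 0.26). Next to the rise of *Apoa5*, the gene of the opposing lipolysis inhibitor had no call.

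*Apoc1* and *Apoe* lie within 9.7 kilobases of chromosome 7 (19689481 to 19699188, minus strand). *Apoc1*, a small protein that slows particle uptake, was at 2642 and 2486 FPKM in COS+APAP, 2510 and 2366 FPKM in APAP, and 4009 and 4031 FPKM in control. Both treated groups lay well below control and overlapped each other. *Apoc1* fell by 0.58 ± 0.13 in APAP relative to control (adjusted p = 0.015). This call was lost without APAP replicate 1 (0.0547) or APAP replicate 3 (0.0876), with the length trend removed (0.0739) and with the replicate number as a block (0.0962). In COS+APAP it fell by 0.49 ± 0.13 relative to control (adjusted p = 0.0463), a call lost without any of the 6 libraries (0.0792 to 0.197). The difference between COS+APAP and APAP was 0.09 ± 0.13 (adjusted p = 0.638).

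*Apoe*, the protein through which remnant particles are taken up, is also made by macrophages. It was at 4853 and 3344 FPKM in COS+APAP, 4906 and 3763 FPKM in APAP, and 3886 and 4268 FPKM in control. All 3 groups overlapped. The differences were -0.07 ± 0.25, 0.23 ± 0.25 and 0.16 ± 0.25 in COS+APAP minus APAP, APAP minus control and COS+APAP minus control (adjusted p = 0.865, 0.493 and 0.679), and their direction turned with the scaling or the library left out. The 7 Kupffer cell markers summed to 98.0 to 103 FPKM in COS+APAP, 90.3 to 128 in APAP, and 82.1 to 92.0 in control. Of these, 2 were called higher and 0 lower in APAP minus control (median 0.73), beside 23.3% and 22.1% of all tested genes. In COS+APAP minus APAP 1 was called higher and 1 lower (median -0.16), beside 11.2% and 11.1%. The 7 markers of monocyte-derived macrophages summed to 16.9 to 17.5, 17.5 to 22.8, and 23.4 to 24.8 FPKM in the same groups, nearly all of it *Lyz2*, and the other 6 were below 1 FPKM on average. Their part in the level of *Apoe* was not tested.

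**Figure D3:**
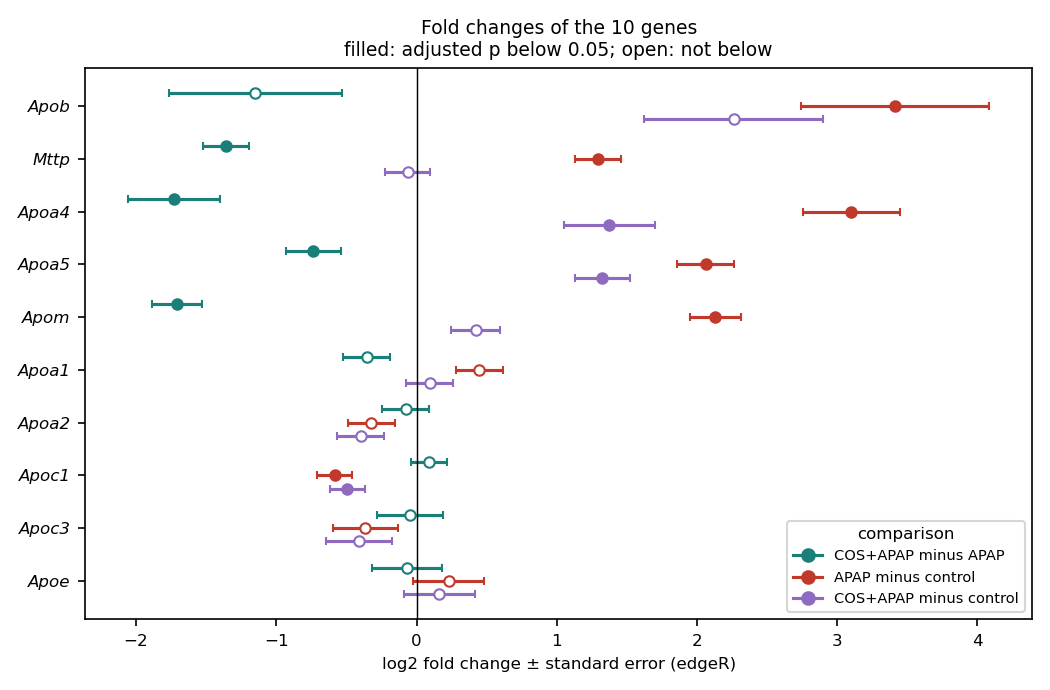
Log2 fold change with its standard error for each member in COS+APAP minus APAP (green), APAP minus control (red) and COS+APAP minus control (purple), filled where the adjusted p is below 0.05. *Apob*, *Mttp*, *Apoa4*, *Apoa5* and *Apom* lie between 1.29 and 3.41 in APAP minus control, and the other 5 between -0.58 and 0.45.

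*Apoa1* and *Apoa2* set most of the members' total. Summed over the 10 genes, the level was 30985 and 25615 FPKM in COS+APAP, 35002 and 33782 FPKM in APAP, and 33978 and 34722 FPKM in control, so APAP and control overlapped. The 10 genes held 5.99% and 5.07% of the summed FPKM in COS+APAP, 7.21% and 7.12% in APAP, and 6.45% and 6.19% in control. *Apoa1* and *Apoa2* together made up 66.0% and 68.4% of the members' sum in COS+APAP, 62.5% and 68.7% in APAP, and 68.5% and 68.9% in control. Within that sum *Apoa4* accounted for 3.06% and 2.44% in COS+APAP, 8.62% and 6.61% in APAP, and 1.2% and 0.77% in control. *Apoa1* exceeded *Apoa2* in FPKM in both COS+APAP and both APAP libraries, whereas *Apoa2* exceeded *Apoa1* in both control libraries. Mitochondrially encoded genes accounted for 11.8% and 10.8% of counts in COS+APAP, 8.28% and 7.37% in APAP, and 12.8% and 16.1% in control, and without them in the total the members' shares were 6.37% to 7.68%, 8.35% to 8.64%, and 8.35% to 8.47%.

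**Figure D4:**
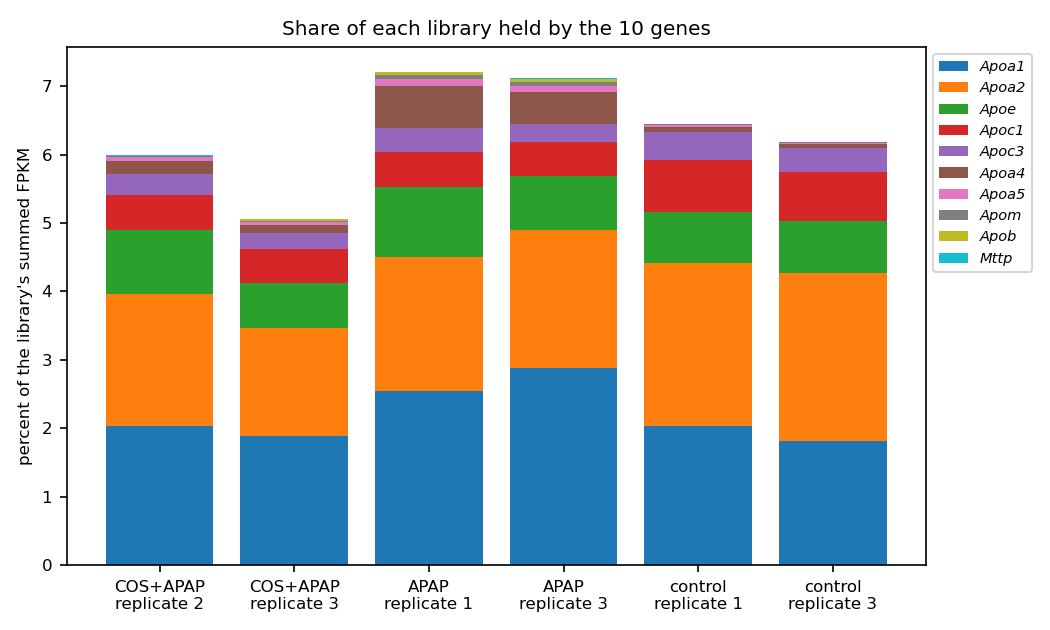
Percent of each library's summed FPKM held by the 10 genes, stacked by gene, for the 2 libraries each of COS+APAP, APAP and control. *Apoa1* and *Apoa2* fill most of every bar, and the *Apoa4* segment is largest in the APAP libraries.

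The tested genes whose centred log2(FPKM + 1) profile over the 6 libraries was nearest to each called member are given as a description. Nearest to *Apoa4* was *Slc25a47*, a mitochondrial carrier of liver, at 221 and 158 FPKM in COS+APAP, 688 and 465 in APAP, and 78.8 and 58.7 in control (root mean square distance 0.12 log2 units), followed by *Gm15611* (0.28). Nearest to *Mttp* were *Cyp4a10* (0.08) and *Cyp4a31* (0.12), and nearest to *Apoa5* were *Cyp4a32* (0.11) and *Serinc3* (0.16). The Cyp4a genes are fatty acid hydroxylases and targets of PPARalpha, and near-identical copies among them can share reads. Nearest to *Apob* were *Hspa1b*, an inducible heat shock protein (0.25), and *Chac1*, a glutathione-degrading enzyme of the stress response (0.29), and both were higher in COS+APAP replicate 3 than in replicate 2, *Hspa1b* at 34.3 and 7.12 FPKM and *Chac1* at 10.9 and 2.14 FPKM. Nearest to *Apom* were *Gm17024* (0.12) and *Snord49b* (0.17), both at 3.80 FPKM or less, and nearest to *Apoc1* were *Chchd10* and *Mospd2* (0.03 each). At low FPKM the added 1 narrows log2 differences. *Gm17024* was at 2.68 and 2.99 FPKM in APAP and 0.21 and 0 in control. The distances of *Gm17024*, *Snord49b*, *Mospd2* and *Gm15611* therefore understate differences in fold change.

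Other lipoprotein genes were described by 6 lists, whose shares of calls stand beside the same background percentages as the members'. Of 26 genes for lipidation and export of VLDL, 8 were called higher and 3 lower in APAP minus control (median 0.07). *Tor1aip1*, which with torsin serves VLDL secretion, rose by 1.09 ± 0.11 (adjusted p = 0.00194). *Apobec1*, which edits the *Apob* transcript and in mouse liver gives the shorter protein, was at 3.18 and 3.20 FPKM in COS+APAP, 10.4 and 7.03 in APAP, and 5.10 and 4.54 in control. It rose by 1.00 ± 0.23 in APAP (adjusted p = 0.0176, lost without either control library at 0.0528 and 0.0822). *Tm6sf2*, needed to lipidate VLDL, fell by 1.32 ± 0.14 (adjusted p = 0.00226), so genes of particle assembly went both ways.

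In COS+APAP minus APAP, 1 of those 26 was called higher and 7 lower (median -0.21). *Ces1d*, a lipase that mobilises stored triglyceride for VLDL, was at 22.9 and 23.6 FPKM in COS+APAP, 116 and 93.2 in APAP, and 180 and 148 in control. It fell by 2.15 ± 0.18 in COS+APAP relative to APAP (adjusted p = 0.00543) and fell by 2.66 ± 0.18 relative to control (adjusted p = 0.00273). Ces1 genes are related copies, and whether reads were shared among them was not tested. *Apobec1* fell by 1.43 ± 0.23 (adjusted p = 0.0148, lost without COS+APAP replicate 2 at 0.0741 or 3 at 0.0671) and *Sar1b*, a GTPase of coat vesicles that export large particles, fell by 0.91 ± 0.12 (adjusted p = 0.00946, lost without COS+APAP replicate 2 at 0.0513). The single rise was *P4hb*, the small subunit of the transfer protein whose large subunit is *Mttp*, with 756 and 681 FPKM in COS+APAP, 466 and 459 in APAP, and 568 and 482 in control (0.65 ± 0.15, adjusted p = 0.0303). This call was lost without either COS+APAP or either APAP library (0.0851 to 0.128), and *P4hb* was named after its value was seen.

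Of the 26, in COS+APAP minus control, 3 were called higher and 6 lower (median -0.08). *Sar1a* fell by 1.83 ± 0.41 (adjusted p = 0.0326, lost without either COS+APAP or either control library at 0.0686 to 0.131) and *Tm6sf2* fell by 0.93 ± 0.14 (adjusted p = 0.0123, lost without either COS+APAP library or control replicate 3 at 0.0530 to 0.0671).

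Of 16 tested of 19 listed other apolipoproteins and particle-borne proteins, 2 were called higher and 7 lower in APAP minus control (median -0.37), 7 higher and 0 lower in COS+APAP minus APAP (median 0.31), and 5 higher and 4 lower in COS+APAP minus control (median -0.00). *Apol7a* fell by 4.17 ± 0.20, *Apol9b* fell by 3.10 ± 0.47 and *Apol9a* fell by 2.62 ± 0.17 in APAP relative to control (adjusted p = 0.000878, 0.00526 and 0.00109). They belong to an intracellular apolipoprotein L family, and *Apol9a* and *Apol9b* are near-identical copies. *Apol9b* also fell in COS+APAP relative to control by 3.08 ± 0.47 (adjusted p = 0.0123, lost without either COS+APAP library at 0.0629 and 0.0757). The serum amyloid A genes, acute-phase proteins that ride on HDL, were highest in COS+APAP. *Saa2* was at 851 and 2371 FPKM in COS+APAP, 6.98 and 14.6 in APAP, and 3.71 and 3.69 in control.

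*Saa2* rose by 7.25 ± 0.71 in COS+APAP over APAP and by 8.93 ± 0.77 over control, and *Saa1*, a near-identical copy, by 5.26 ± 0.73 and 7.73 ± 0.82 (adjusted p = 0.00372 to 0.0112). *Saa4* was at 235 and 303 FPKM in COS+APAP, 29.2 and 31.8 in APAP, and 107 and 82.5 in control, and rose by 3.16 ± 0.21 over APAP (adjusted p = 0.00346). In the COS+APAP libraries *Saa1* and *Saa2* together exceeded *Apoa4*, while *Apoa1* and *Apoa2* were above both.

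Of 8 tested of 10 listed HDL assembly and remodelling genes, 3 were called higher and 2 lower in APAP minus control (median 0.40), 1 higher and 2 lower in COS+APAP minus APAP (median -0.19), and 3 higher and 1 lower in COS+APAP minus control (median 0.44). *Abca1*, the transporter that lipidates apolipoprotein A-I, was at 8.15 and 9.62 FPKM in COS+APAP, 12.7 and 13.2 in APAP, and 6.74 and 5.82 in control. It rose by 1.18 ± 0.14 in APAP (adjusted p = 0.00289), and *Pcsk6*, a protease, rose by 1.02 ± 0.14 (adjusted p = 0.00407). *Lipg*, endothelial lipase, fell by 1.80 ± 0.47 (adjusted p = 0.0262, lost without either APAP library or control replicate 3 at 0.101 to 0.115). In COS+APAP minus APAP, *Lipc* (hepatic lipase), *Abca1* and *Bmp1* were at -0.67, -0.52 and 0.49 (adjusted p = 0.0413, 0.0497 and 0.0394). The *Lipc* call was lost without either COS+APAP or either APAP library (0.106 to 0.154), and the calls of *Abca1* and *Bmp1* without any of the 6 libraries (0.0574 to 0.191 and 0.0514 to 0.153). *Bmp1*, *Abca1* and *Pltp* were at 0.70, 0.66 and -0.57 in COS+APAP minus control (adjusted p = 0.0167, 0.0289 and 0.0369). The calls of *Abca1* and *Pltp* were lost without any of the 6 libraries (0.0510 to 0.121 and 0.0530 to 0.139), and that of *Bmp1* without either COS+APAP library or control replicate 3 (0.0659 to 0.0794).

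**Figure D5:**
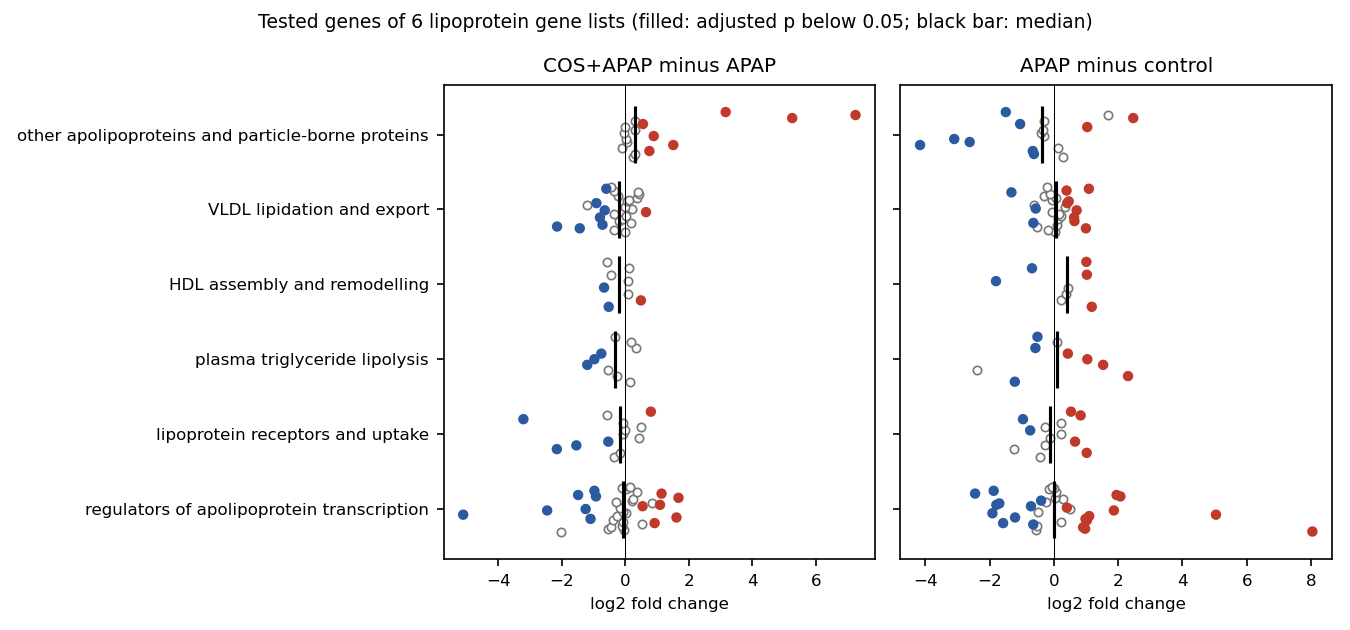
Log2 fold change of each tested gene of the 6 lists in COS+APAP minus APAP (left) and APAP minus control (right), filled red or blue where called higher or lower, open where not called, with a black bar at the list median. The list medians lie between -0.37 and 0.40 in both panels, and the 3 serum amyloid genes reach 3.16 to 7.25 in COS+APAP minus APAP.

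Of 9 genes of plasma triglyceride lipolysis, 4 were called higher and 3 lower in APAP minus control (median 0.10), 0 higher and 3 lower in COS+APAP minus APAP (median -0.32), and 1 higher and 2 lower in COS+APAP minus control (median -0.23). *Angptl4*, an inhibitor of lipoprotein lipase, was at 78.9 and 73.0 FPKM in COS+APAP, 98.8 and 84.2 in APAP, and 24.3 and 16.5 in control. *Angptl4* rose by 2.31 ± 0.23 in APAP and 2.05 ± 0.23 in COS+APAP over control (adjusted p = 0.00187 and 0.00599).

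*Gpihbp1*, which anchors lipoprotein lipase to capillaries, was at 3.05 and 3.37 FPKM in COS+APAP, 7.96 and 6.96 in APAP, and 2.60 and 3.08 in control. It rose by 1.53 ± 0.17 in APAP (adjusted p = 0.0024) and fell by 1.20 ± 0.17 in COS+APAP relative to APAP (adjusted p = 0.0113, lost without COS+APAP replicate 2 at 0.0628 or APAP replicate 1 at 0.0548). *Gpld1*, a phospholipase, was at -0.98 ± 0.16 and the lysosomal lipase *Lipa* at -0.75 ± 0.12 in COS+APAP minus APAP (adjusted p = 0.016 and 0.0132). Both calls were lost without APAP replicate 1 or either COS+APAP library (0.0505 to 0.0776 and 0.0516 to 0.0621). The 5 markers of sinusoidal endothelium summed to 15.2 and 11.4 FPKM in COS+APAP, 25.5 and 25.3 in APAP, and 25.2 and 29.9 in control. Of these markers 0 were called higher and 4 lower in COS+APAP minus APAP, beside 11.2% and 11.1% of all tested genes. In APAP minus control 0 were called, beside 45.4% of all tested genes. The part of these markers in the *Gpihbp1* values was not tested. *Lpl* was low, at 0.77 and 0.77 FPKM in COS+APAP, 0.93 and 1.01 in APAP, and 1.58 and 1.47 in control, and fell by 0.83 ± 0.14 in COS+APAP relative to control (adjusted p = 0.0142, lost without either COS+APAP or either control library at 0.0522 to 0.0769).

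Of 13 tested of 15 listed genes of lipoprotein receptors and uptake, 4 were called higher and 2 lower in APAP minus control (median -0.12), 1 higher and 4 lower in COS+APAP minus APAP (median -0.15), and 2 higher and 4 lower in COS+APAP minus control (median 0.15).

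*Insig1*, a brake on sterol sensing, fell by 2.16 ± 0.42 in COS+APAP relative to APAP and fell by 3.41 ± 0.44 relative to control (adjusted p = 0.0221 and 0.00867). The first was lost without either COS+APAP library (0.091 and 0.10) and the second without COS+APAP replicate 3 (0.0565). *Sdc1*, a heparan sulfate receptor of remnants, rose by 0.83 ± 0.19 in APAP over control (adjusted p = 0.0176, lost without either control library at 0.0620 and 0.0790).

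Of 33 tested of 35 listed regulators known to act on apolipoprotein genes, 11 were called higher and 10 lower in APAP minus control (median 0.00), 6 higher and 7 lower in COS+APAP minus APAP (median -0.07), and 5 higher and 5 lower in COS+APAP minus control (median -0.11). *Jun*, an AP-1 subunit, was at 5.45 and 15.2 FPKM in COS+APAP, 340 and 382 in APAP, and 14.7 and 9.36 in control. It rose by 5.04 ± 0.58 in APAP over control and fell by 5.11 ± 0.58 in COS+APAP relative to APAP (adjusted p = 0.00258 and 0.00783). *Atf3*, a stress-induced repressor, was at 11.1 and 99.6 FPKM in COS+APAP, 246 and 213 in APAP, and 0.88 and 1.04 in control, so COS+APAP replicate 3 was well above replicate 2, as for *Apob*. It rose by 8.04 ± 1.22 in APAP (adjusted p = 0.00511) and by 6.01 ± 1.11 in COS+APAP over control (adjusted p = 0.02, lost without either control library at 0.0900 and 0.102).

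*Nr1d1*, a clock repressor, fell by 2.46 ± 0.12 in COS+APAP relative to APAP (adjusted p = 0.00205), and *Ppargc1a*, a coactivator of fasting genes, rose by 1.68 ± 0.22 (adjusted p = 0.0105, lost without APAP replicate 1 at 0.0576). The lipogenic factors *Srebf1* and *Mlxipl* were at -2.85 ± 0.12 and -1.90 ± 0.10 in COS+APAP minus control (adjusted p = 0.00157 and 0.00207). Chosen after their values were seen, *Hnf4a*, also on the hepatocyte list, the nuclear receptor that drives many apolipoprotein genes, was at 122 and 121 FPKM in COS+APAP, 121 and 176 in APAP, and 78.4 and 73.4 in control. Likewise *Creb3l3*, an activator of *Apoa4* in mouse liver, was at 101 and 86.8, 137 and 120.5, and 82.4 and 68.9 FPKM in the same groups. Both were called higher in APAP minus control (1.10 and 0.91, adjusted p = 0.00668 and 0.00786) and neither was called in COS+APAP minus APAP (-0.26 and -0.44, adjusted p = 0.336 and 0.103).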

How the data were processed

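Poly(A) RNA of mouse liver was sequenced in pairs of reads, per the labels' protocols. HISAT2 2.0 and StringTie 1.3.0 are named in the submitters' processing notes, and no build is named in the sources used here. Of the table's identifiers 55141 were also in mouse GENCODE release 21 (GRCm38), 94.2% of them with identical coordinates. The deposited table gives, by its header, an estimated count for each gene in each library; all were whole numbers and were used unchanged. The FPKM values beside them were also made and deposited by the authors. Another 6 columns of per-sample values matched no sample and were not used.

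Genes averaging 1 FPKM or more were tested with edgeR 4.0.16 (R 4.3.3, TMM scaling, quasi-likelihood F test, 1 model of 3 groups, 3 residual degrees of freedom), and the procedure was checked on simulated data. DESeq2 1.42.0, limma 3.58.1 on log2(FPKM + 1) and log2(FPKM + 0.1), other scalings, no filter, 2-group fits, left-out libraries and a replicate block were alternatives. A length-adjusted fit (offset from each library's smooth trend on transcript length) was chosen after seeing the data. The standard error was taken as the absolute log2 fold change over the root of F.

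The members and gene lists were chosen with earlier results of these data known. Named genes were all members, the 3 called genes of largest change per list and comparison, and the 2 nearest profiles per called member. Some genes that this rule names are not reported here. A symbol with several entries was read from the one with the highest mean FPKM.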

Additional observations from a re-analysis of the deposited data

How the results depend on the processing

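All members called in APAP minus control kept their direction under every alternative listed in the methods, and 5 or 6 of the 10 were called when 1 library was left out. Among COS+APAP minus APAP calls, *Apom* and *Mttp* stayed called under every alternative run, and 2 to 3 members were called when 1 library was left out; in COS+APAP minus control 0 to 2 were. In COS+APAP minus control DESeq2's Wald test called 5 members, the fit without a filter 1 and the fit of only both groups 1. Over all genes DESeq2 called 3552 in COS+APAP minus APAP and 3422 in COS+APAP minus control, against 2249 and 2109, and leaving out 1 library gave 612 to 1941 and 590 to 1724. Differences that changed sign were uncalled throughout. Library totals without mitochondrial transcripts gave *Apoe* -0.033 in APAP minus control, and *Apoe* -0.061 and *Apoa1* -0.13 in COS+APAP minus control. Limma gave -0.016 and -0.062 for these last 2 at both pseudocounts. Leaving out 1 library gave ranges in COS+APAP minus APAP of -0.24 to 0.069 for *Apoa2*, -0.28 to 0.23 for *Apoc3* and -0.35 to 0.17 for *Apoe*, in APAP minus control of -0.009 to 0.43 for *Apoe*, and in COS+APAP minus control of -0.12 to 0.40 for *Apoe* and -0.20 to 0.059 for *Mttp*. The cause of these sign changes was not tested. That mitochondria-free scaling moved the median of all genes by -0.26 in APAP minus control and -0.21 in COS+APAP minus control, and 32.9% and 26.5% of calls were then higher, against 51.3% and 50.9%. With limma on log2(FPKM + 1) these shares were 40.7% and 29.4%. The members' share of summed FPKM without mitochondrial transcripts was 7.68% and 6.37% in COS+APAP, 8.64% and 8.35% in APAP, and 8.35% and 8.47% in control, and their share of estimated counts 3.87% and 3.28%, 4.81% and 4.57%, and 3.87% and 3.89%. Replicate numbers 1 and 3 are shared by APAP and control; with the replicate number as a block 5 members and 3187 genes were called, with the *Apoc1* call lost. Deviations of same-numbered libraries were hardly correlated (r = 0.0175 over 10051 genes), so the numbers were not taken to pair samples. COS+APAP shares only the number 3 with either other group, which leaves 1 pair, and no fit with the replicate number as a block was run for its comparisons.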
